A study of Mus musculus with 34 samples.

Results

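The 36 genes described here encode aminoacyl-tRNA synthetases, the enzymes that load each amino acid onto its transfer RNA. They were taken by symbol from the deposited tables, and all 36 were found among the 49686 genes of the zygote and late 2-cell tables and the 51734 genes of the blastocyst table. By symbol, 20 were grouped as cytoplasmic and 16, whose symbols end in 2, as mitochondrial. A synthetase recognises its amino acid and its transfer RNA and joins them, so protein synthesis in the cytoplasm and in mitochondria both depend on these genes. Most amino acids have separate cytoplasmic and mitochondrial enzymes, both encoded in the nucleus. Gars and Kars each supply both compartments, Farsa and Farsb encode the subunits of the same cytoplasmic phenylalanine enzyme, and several cytoplasmic enzymes sit together in the multi-synthetase complex. In the embryo the zygote starts with RNA stored in the oocyte, and by the late 2-cell stage much of that RNA is degraded and the embryonic genome is active.

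Each library was 1 mouse embryo whose zygote had been injected with mRNA for CHK1, a kinase of the DNA damage checkpoint. The mRNA encoded either the wild-type protein (WT) or the mutant named R442Q. With the WT mRNA there were 5 zygotes, 4 late 2-cell embryos and 7 blastocysts. With the R442Q mRNA the numbers were 6, 5 and 7. Zygotes and late 2-cell embryos are labelled as untreated, whereas all 14 blastocysts had been cultured with a CHK1 inhibitor at 30 nM. Every embryo had therefore received CHK1 mRNA, none of the groups was uninjected, and the blastocysts had no untreated counterpart. Strain and parental animals are not given in the sources used here. Nothing says whether replicates came from separate mothers or injection days, so p-values measure only the spread between these embryos.

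Zygote libraries held 7183632 to 11296522 counts, and those of the late 2-cell stage 5727956 to 8916343. Only FPKM (fragments scaled to transcript length and library size) were used for the blastocysts, whose low values were spaced as for about 12800000 to 16400000 counts. Chek1 was at 4500 to 8230 CPM (counts scaled to library size) in WT and 5830 to 7520 in R442Q zygotes, and the genotypes overlapped. It was at 397 to 683 and 293 to 687 CPM in WT and R442Q late 2-cell embryos, and at 7.05 to 38.2 and 13.3 to 23.6 FPKM in WT and R442Q blastocysts. Whether the reads carry the mutation was not analysed here. The markers fixed for each stage were at a mean of at least 1 FPKM in both genotypes of that stage, all 6 for zygotes, all 5 for late 2-cell embryos and all 8 for blastocysts. Of 12 cumulus and granulosa markers none reached a mean of 1 FPKM in zygotes, Amhr2 and Tnfaip6 did in late 2-cell embryos and Amhr2 in blastocysts. The summed level of all 12 at the late 2-cell stage was 43.5 to 73.9 FPKM in WT and 17.5 to 73.4 in R442Q embryos. R442Q blastocyst replicate 7 stood apart. It had 8189 genes at 1 FPKM or more, against 9852 to 12191 in the other blastocysts, and 4050 FPKM of the mitochondrial rRNA mt-Rnr2, against 92.9 to 1190. The list medians and the differences of Cars, Tars and Aars in blastocysts are given with and without it. Blastocyst levels and pairs of enzymes are given with it.

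The promoters of 4 cytoplasmic synthetase genes carry the letters of a composite C/EBP-ATF element, the kind of site through which ATF4 is known to raise amino acid response genes. They are shown because the genes of that response are described with the synthetases at each stage. RefSeq promoter sequences on GRCm38.p6, from 250 bases before to 50 bases after the annotated start, were used for 26 of the 36 members. TGATGNAA was searched on both strands and was found in 4 of these 26, or 15.4%, against 3.97% of 32851 promoters of the same length. The 4 were among 12 cytoplasmic promoters, and 0 of 14 mitochondrial promoters held it. Each line gives 30 bases on the strand of the gene, 5′ to 3′, with the match in capitals.
Iars, chr13:49682126-49682155, plus strand: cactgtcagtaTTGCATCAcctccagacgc
Tars, chr15:11399655-11399684, minus strand: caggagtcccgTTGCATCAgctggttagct
Gars, chr6:55037960-55037989, plus strand: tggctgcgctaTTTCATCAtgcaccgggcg
Yars, chr4:129189895-129189924, plus strand: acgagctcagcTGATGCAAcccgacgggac
In Iars, Tars and Gars the letters stand as the reverse complement, and in Yars as written. The match begins 15 bases before the start in Tars, 30 before in Gars, and at bases 8 and 4 after the start in Iars and Yars. The E-box CACGTG, which overlaps none of these matches, was found in 4 of the 26 promoters (Ears2, Farsb, Iars and Tars), against 7.15% of all promoters. CCAAT, the third motif searched, was found in 12 of the 26, or 46.2%, against 37.4% of all promoters. It was in 6 of 12 cytoplasmic and 6 of 14 mitochondrial promoters. A match is a description of letters and not evidence of binding.

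Cytoplasmic synthetases were the more abundant group at every stage, and the set of abundant members changed between stages. The mean over a stage's embryos reached 10 FPKM for 14 of 20 cytoplasmic genes in zygotes, 17 in late 2-cell embryos and all 20 in blastocysts. For the mitochondrial genes this was 4, 6 and 9 of 16. The median of the cytoplasmic means was 23.9, 26.9 and 82.8 FPKM at the 3 stages, and that of the mitochondrial means 2.23, 4.58 and 10.8 FPKM. The stages were normalized in separate tables, so these levels are set side by side and carry no test. The summed FPKM of all genes was 669904 to 687863 in zygotes, 712234 to 976830 in late 2-cell embryos and 979070 to 1164489 in blastocysts. The part of this in the rise of levels was not tested. In a whole embryo fewer cells and less RNA per cell cannot be told apart.

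**Figure D1:**
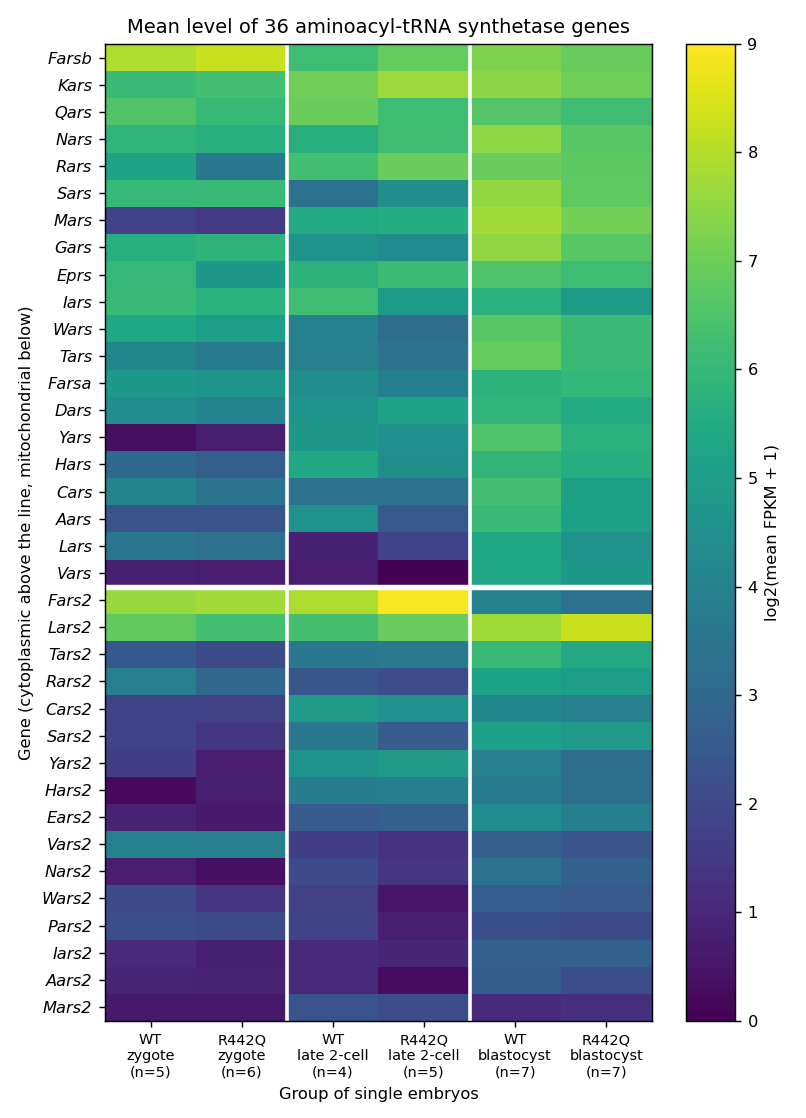
Heat map of the mean level of each of the 36 genes, as log2(mean FPKM + 1), in the 6 groups of embryos, with cytoplasmic genes above the white line and mitochondrial genes below. Fars2 and Lars2 are bright in zygotes and late 2-cell embryos amid mostly dark mitochondrial rows, and all 20 cytoplasmic genes are above 10 FPKM on average in blastocysts.

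In zygotes Farsb was the highest member at a mean of 277 FPKM (208 to 338 over 11 embryos), followed by the mitochondrial phenylalanine enzyme Fars2 at 205 FPKM (170 to 269). These ranges overlapped. Lars2, for mitochondrial leucine, was at 93.1 FPKM, Qars, for glutamine, at 77.9 and Kars, for lysine, at 74.1, with overlapping ranges. The third mitochondrial gene was Vars2 at 14.3 FPKM (10.3 to 17.9), below the 55.5 to 138 of Lars2. The lowest cytoplasmic members were Mars (2.18 FPKM), Vars (0.656) and Yars (0.515), the enzymes for methionine, valine and tyrosine. Mars2, Hars2 and Nars2 were the lowest mitochondrial ones at 0.53, 0.448 and 0.425 FPKM.

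In late 2-cell embryos Fars2 had the highest value at 375 FPKM (165 to 730 over 9 embryos), ahead of Kars at 171 (119 to 255), Rars at 101 (46.6 to 169), Lars2 at 101 and Farsb at 96.5. By the mean Yars2 had become the third mitochondrial gene, at 25.9 FPKM, close to Cars2 at 25.1 and with overlapping ranges. By the median Cars2 was higher, at 25.8 against 22.9 FPKM. Cars (9.67), Lars (1.73) and Vars (0.277) were the lowest cytoplasmic genes, and Wars2 (1.24), Iars2 (1.06) and Aars2 (0.612) the lowest mitochondrial ones. In blastocysts Lars2 was highest at 262 FPKM (82.2 to 724 over 14 embryos), then Mars at 177, Kars at 150 and Sars, for serine, at 148, all with overlapping ranges. Tars2 (54) and Rars2 (34) followed Lars2 among mitochondrial genes. Iars, Vars and Lars were the lowest cytoplasmic genes at 40.9, 33.2 and 32 FPKM, and Aars2, Pars2 and Mars2 the lowest mitochondrial ones at 4.37, 3.42 and 1.2 FPKM.

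The cytoplasmic enzyme was usually the higher one of the pair for the same amino acid. Of 17 pairs (counting Farsa and Farsb each against Fars2), it was higher in every embryo in 12 pairs in zygotes, 8 in late 2-cell embryos and 13 in blastocysts. Leucine was the exception at every stage. Lars was at 0.104, 0.0172 and 0.122 of the mean level of Lars2 in zygotes, late 2-cell embryos and blastocysts. Lars2 was higher in each of the 34 embryos. The highest Lars2 value, 724 FPKM, was in R442Q blastocyst replicate 7, which also had the most mt-Rnr2, at 4050 FPKM. There is no mt-Rnr2 value at the earlier stages, and any link between these levels was not tested. In FPKM, Vars2 exceeded Vars in all 11 zygotes, and Fars2 exceeded Farsa in all 11 zygotes and all 9 late 2-cell embryos. Mars against Mars2 and Yars against Yars2 went either way among zygotes. In late 2-cell embryos Fars2 was above Farsb in FPKM in all 9, Cars2 above Cars and Vars2 above Vars in 8 of 9, and the histidine, serine, threonine and tyrosine pairs went either way. The effective lengths given next limit these orders.

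The high FPKM of Fars2 came with a short effective length. The length that relates its counts to its FPKM was 373 to 460 bases in zygotes and 267 to 365 in late 2-cell embryos, whereas its longest coding transcript in GENCODE M21 has 2125 bases and its shortest transcript 407. For Vars2 in zygotes it was 529 to 640 bases against 4425. For Lars2 it was 3628 to 3785 bases over both stages, near its 3894, and for Kars 1911 to 2000, near its 2189. The median effective length was under 50% of the longest coding transcript for 9 of 33 members with a value in zygotes (Mars, Qars, Sars, Vars, Fars2, Hars2, Tars2, Vars2 and Yars2). In late 2-cell embryos this was so for 9 of 36 (Cars, Eprs, Mars, Qars, Fars2, Hars2, Tars2, Vars2 and Yars2). The FPKM of these genes cannot be read as the level of the full-length message, and their places in the order of levels carry this limit. Fars2 also overlaps Lyrm4 and Nrn1 on the opposite strand, and 7.73% of its 50-base stretches occur in Nrn1 transcripts. Whether counting used strand is not given in the sources used here.

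In zygotes 5 synthetase genes fell and 1 rose with R442Q. Rars, the cytoplasmic arginine enzyme, fell 2.85-fold, and its mitochondrial counterpart Rars2 fell 1.89-fold. Eprs, which charges both glutamate and proline transfer RNAs, Cars, for cysteine, and Tars, for threonine, fell 1.49- to 1.6-fold. Farsb rose 1.36-fold, while its partner subunit Farsa differed by 0.02 on the log2 scale (SE 0.15), which did not pass the test. Of the 32 members that passed the filter on low counts (Vars, Yars, Hars2 and Nars2 did not), 21 had a negative difference and the median was -0.24, beside 0.01 over all 12420 genes tested. Calls were made with edgeR's quasi-likelihood test at a Benjamini-Hochberg adjusted p under 0.05, over all genes tested. That test called 13.2% of all genes, 6.30% higher and 6.92% lower, and 6 of 32 members is near that share, so the count is no result about the family.

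Rars was at 72.6, 92.1, 51.0, 49.4 and 63.3 CPM in the WT zygotes and at 18.2 (lowest), 22.2 (median) and 30.1 (highest) in the R442Q zygotes. The genotypes did not overlap. The difference was -1.51 (log2, SE 0.19; edgeR adjusted p = 0.0002), and it passed the threshold under every alternative run. Eprs was at 156, 198, 171, 130 and 125 CPM in WT and at 82.7, 109 and 117 (lowest, median, highest) in R442Q zygotes, again without overlap (-0.60, SE 0.14; edgeR adjusted p = 0.01). Rars and Eprs were the 2 of 32 tested members without overlap, beside 8.71% of all genes tested. The effective length of Eprs varied between zygotes from 2132 to 4770 bases, so its FPKM and its counts do not give the same difference. In FPKM the genotypes overlapped, with WT replicate 5 at 33.9 and R442Q replicate 3 at 37.2.

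Rars2 was at 21.3, 22.2, 25.4, 22.4 and 15.5 CPM in WT and at 6.96, 10.3 and 16.3 (lowest, median, highest) in R442Q zygotes (-0.92, SE 0.22; edgeR adjusted p = 0.0119). WT replicate 5 was the only WT zygote below the highest R442Q zygote. Farsb was at 360, 368, 519, 418 and 414 CPM in WT and at 495, 574 and 617 in R442Q zygotes (0.44, SE 0.11; edgeR adjusted p = 0.0156), and WT replicate 3 reached into the R442Q range. Without WT replicate 1 its adjusted p was 0.0505.

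Cars was at 29.1, 32.7, 32.5, 28.1 and 35.9 CPM in WT and at 13.7, 18.8 and 29.4 in R442Q zygotes (-0.68, SE 0.19; edgeR adjusted p = 0.0248). Tars was at 44.5, 54.9, 49.2, 51.4 and 61.2 CPM in WT and at 21.7, 34.4 and 45.7 in R442Q zygotes (-0.57, SE 0.18; edgeR adjusted p = 0.0466). In both genes the highest R442Q zygote lay just above the lowest WT zygote. Both calls lay close to the threshold. Cars lost its call without WT replicate 2 or 5 or R442Q replicate 2, 4 or 5 (edgeR adjusted p 0.0514 to 0.0574). Tars kept it only without R442Q replicate 3 or 6 (adjusted p 0.0539 to 0.103 without any of the other 9 embryos).

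**Figure D2:**
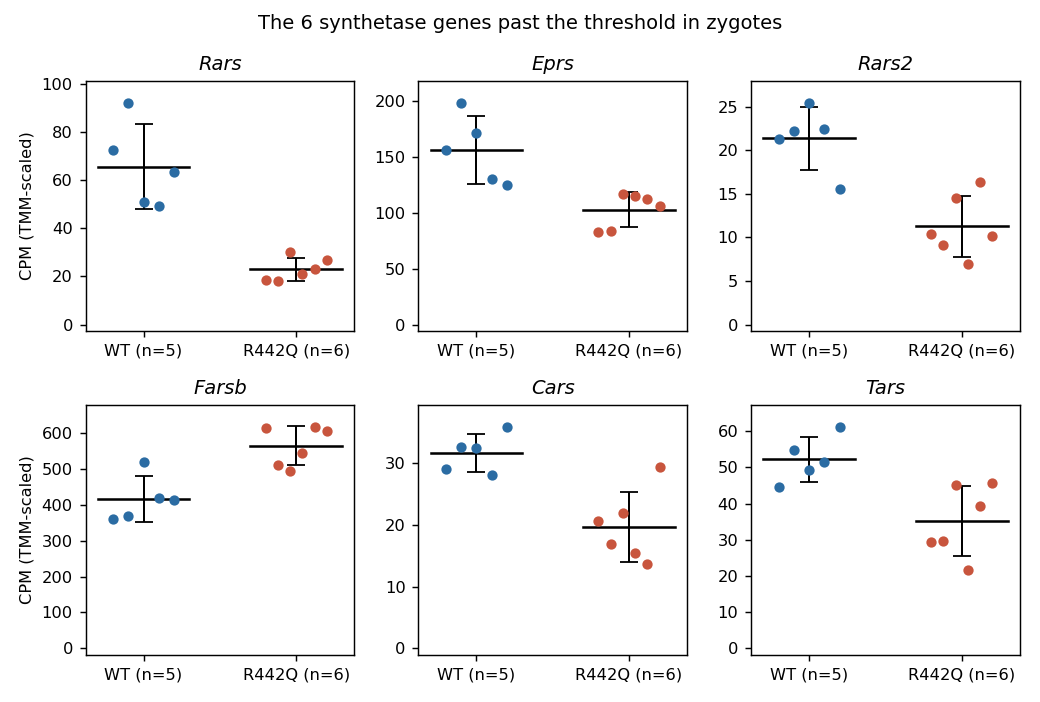
CPM (scaled by TMM, the trimmed mean of M values) of the 6 synthetase genes past the threshold in zygotes, with a point per embryo, the mean as a horizontal line and the SD as a bar, for 5 WT and 6 R442Q zygotes. Rars and Eprs do not overlap between genotypes, Farsb is higher in R442Q, and Rars2, Cars and Tars are lower with some overlap.

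Genes that work with the synthetases were examined as lists. Among the 8 members in the multi-synthetase complex (Dars, Eprs, Iars, Kars, Lars, Mars, Qars and Rars), 7 had a negative difference in zygotes, with a median of -0.37, and 2 passed the test, Rars and Eprs. Of 13 tested partner genes 2 fell and 0 rose, beside 6.92% and 6.30% of all genes. Aimp2, a scaffold of the complex, fell by 0.67 on the log2 scale and Sepsecs, which completes selenocysteine on its transfer RNA, by 0.65 (edgeR adjusted p = 0.0477 and 0.0294). Aimp2 kept its call, among the fits with 1 embryo left out, only without R442Q replicate 3 or 6, and Sepsecs lost its call without WT replicate 2 or 5 or R442Q replicate 2, 5 or 6. Of 24 tested genes of the amino acid response 5 rose and 1 fell, beside the same shares of all genes. Psat1 (2.51), Psph (1.06), Shmt2 (0.52) and Mthfd2 (0.33), enzymes of serine and one-carbon metabolism, and the kinase Eif2ak4 (0.63), which senses uncharged transfer RNA, rose on the log2 scale. Atf4, the transcription factor of that response, fell by 0.42. Phgdh, another enzyme of serine metabolism on the list, went the other way without being called. It was at 7.16 to 12.3 CPM in WT and 5.55 to 8.59 CPM in R442Q zygotes. Psat1 was at 0.721 to 3.45 CPM in WT and 3.66 to 17.6 CPM in R442Q zygotes, so its fold size rests on low levels. Psat1 passed in all 19 alternatives and Eif2ak4 in 18 of 19, whereas Psph lost its call in 12, Mthfd2 in 10 and Atf4 in 8 of 19, and in the joint fit of both stages 1 of these genes rose and 0 fell. Summed zygote and oocyte markers also differed between the genotypes, at 2390 to 3170 FPKM in WT and 1600 to 2310 in R442Q zygotes. Their part in these results was not tested.

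In late 2-cell embryos Aars, the alanine enzyme, was the only member to pass the test, and it fell 4.44-fold with R442Q. Its level was 25, 26.2, 18 and 24 FPKM in WT and 4.59, 4.02, 4.35, 4.63 and 6.04 in R442Q embryos. The lowest WT embryo lay far above the highest R442Q embryo. On the count scale Aars was at 127, 147, 95.4 and 125 CPM in WT and at 27.5, 23.9, 23.0, 27.7 and 37.0 CPM in R442Q embryos (-2.15, SE 0.29; edgeR adjusted p = 0.0034). The call held in 16 of 17 alternatives and was lost (edgeR adjusted p = 0.133) with a block by the numbers of the deposited columns, under which no gene passed.

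Of the 34 members tested at this stage (Vars and Aars2 were filtered out), 21 had a negative difference and the median was -0.18, beside 0.07 over 13883 genes. The test called 4.18% of all genes, 1.22% higher and 2.95% lower, so 1 of 34 members is no more than that share. Exosc6, whose gene overlaps Aars and shares 13.5% of its 50-base stretches, had counts of 426, 266, 0 and 106 in WT and 55, 74, 9, 12 and 168 in R442Q embryos, so reads could be split between them. The part of such splitting in the result was not tested. The summed FPKM of all genes also differed between the genotypes at this stage, at 712234 to 742246 in WT and 814376 to 976830 in R442Q embryos. The test used counts, and the part of this in the result was not tested. Summed late 2-cell markers were at 88.9 to 1200 FPKM in WT and 545 to 2200 FPKM in R442Q embryos, with overlap. Their part was not tested either.

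A pair of further members stood out without passing the test. Fars2 was at 85.0, 60.5, 77.7 and 80.5 CPM in WT and at 144, 125, 127, 207 and 106 CPM in R442Q embryos. All R442Q embryos lay above all WT embryos (0.90, SE 0.29; edgeR adjusted p = 0.0972). The effective length of Fars2 at this stage was 315 to 365 bases in WT and 267 to 299 in R442Q embryos. Its counts therefore cannot be read as the level of the full-length message. Lyrm4, on the opposite strand, was at 22.3 to 44.2 CPM in WT and 21.5 to 71.1 CPM in R442Q embryos. The part of either in the difference was not tested. Aars and Fars2 were the 2 of 34 members whose genotypes did not overlap, beside 12.0% of all genes tested. Iars, for isoleucine, was at 335, 175, 368 and 189 CPM in WT and at 76.2, 122, 194, 74.1 and 126 CPM in R442Q embryos, with R442Q replicate 3 inside the WT range (-1.17, SE 0.36; edgeR adjusted p = 0.0797).

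Of the 6 members called in zygotes, none passed the test at the late 2-cell stage. Rars was at 126, 183, 86.2 and 187 CPM in WT and at 369, 231, 98.9, 185 and 309 CPM in R442Q late 2-cell embryos, a difference of 0.71 (SE 0.39; edgeR adjusted p = 0.314), with overlapping groups. With the length and GC trend removed it was -0.27 (edgeR adjusted p = 0.784). Conversely Aars was at 9.73 to 24.6 CPM in WT and 17.5 to 24.6 CPM in R442Q zygotes (0.10, SE 0.22; edgeR adjusted p = 0.816).

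Among 15 partner genes tested in late 2-cell embryos 2 rose and 0 fell, beside 1.22% and 2.95% of all genes. Tarsl2, which encodes another threonine synthetase-like protein, rose by 2.10 and Prorsd1, related to the editing domain of prolyl-tRNA synthetase, by 1.68 on the log2 scale (edgeR adjusted p = 0.0165 and 0.0240). Both lost their calls without WT replicate 2 or 3, Tarsl2 also without WT replicate 4, and Prorsd1 with a length and GC trend removed (edgeR adjusted p 0.0523 to 0.142). Mean levels of Tarsl2 were 17.9 ± 9.81 CPM (SD, n = 4) in WT and 76.7 ± 24.4 CPM (SD, n = 5) in R442Q embryos. Of 25 tested amino acid response genes Sesn2, a stress-induced inhibitor of mTORC1 signalling, fell by 2.60 (edgeR adjusted p = 0.0165) and 0 rose. With the length and GC trend removed its difference was -1.58 and did not pass the test (edgeR adjusted p = 0.123). It was at 274 ± 41.9 CPM (SD, n = 4) in WT and 45.1 ± 26.1 CPM (SD, n = 5) in R442Q embryos. Atf4 was at 592 ± 123 and 504 ± 130 CPM in WT and R442Q embryos, and did not pass the test.

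**Figure D3:**
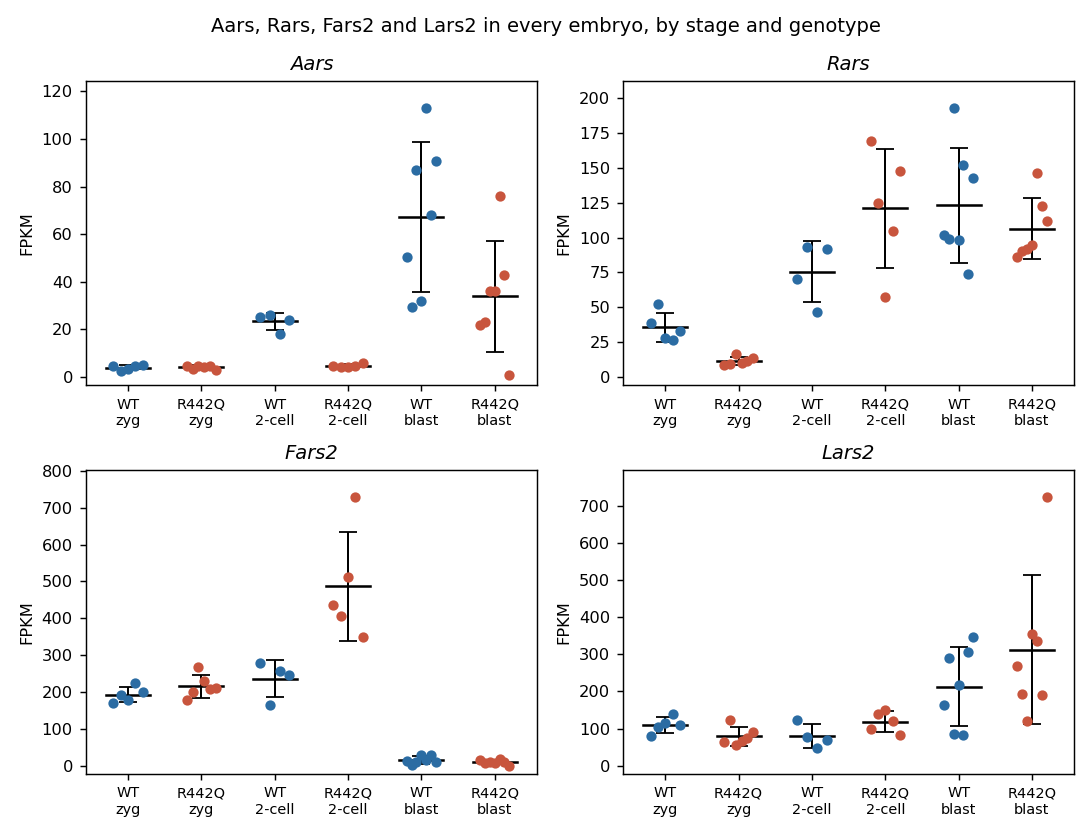
FPKM of Aars, Rars, Fars2 and Lars2 in every embryo of the 6 groups (blue WT, red R442Q; line, mean; bar, SD), with stages normalized in separate tables. Aars is at 2.37 to 5.05 FPKM in zygotes and 4.02 to 6.04 FPKM in R442Q late 2-cell embryos but 18 to 26.2 FPKM in WT late 2-cell embryos, the genotypes do not overlap for Rars in zygotes but do at the other stages, and Lars2 is highest in R442Q blastocyst replicate 7.

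From zygote to late 2-cell the synthetase genes split, with 13 rising and 8 falling in WT embryos and 13 rising and 10 falling in R442Q embryos. Tyrosine, methionine and mitochondrial histidine enzymes rose from very low levels in zygotes, whereas cytoplasmic Lars, Sars and Wars (leucine, serine and tryptophan) and mitochondrial Vars2 (valine) fell. Among mitochondrial genes 7 rose and 2 fell in either genotype. With 1 embryo left out, those that fell numbered 2 to 3 in WT and 1 to 4 in R442Q embryos, the 4 being without R442Q late 2-cell replicate 1. Among cytoplasmic genes 6 rose and 6 fell in WT, and 6 rose and 8 fell in R442Q embryos. In a model of the 4 groups 61.2% of 16199 genes were called in WT embryos (36.2% higher, 25.0% lower). In R442Q embryos 65.1% were called (35.3% higher, 29.8% lower), so a call is common. The counts over all members are near those shares, so they are no result about the family. The counts of both stages were scaled together, but stage and table cannot be told apart.

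Yars had the largest rise. It was at 0 in 3 of the 5 WT zygotes and at 0.271 and 0.45 CPM in the others, and at 46.2, 65.5, 31.5 and 31.4 CPM in WT late 2-cell embryos (8.08, SE 0.85; edgeR adjusted p = 2.4e-08). In R442Q embryos it rose by 5.15 (SE 0.64; edgeR adjusted p = 2.8e-07), from a median of 0.965 CPM to 33.8 CPM. Hars2 rose by 6.53 in WT and 4.35 in R442Q embryos, from medians of 0.113 and 0.539 CPM to 22.2 and 14.2 CPM. Mars rose by 3.77 and 4.48, from medians of 4.06 and 1.6 CPM to 55 and 52.8 CPM. Cars2, for mitochondrial cysteine, rose by 3.47 in WT and Yars2 by 4.75 in R442Q embryos. These levels in zygotes rest on few counts, so the fold sizes are less certain than the directions. Hars2 overlaps Hars on the opposite strand, and Mars likewise overlaps Ddit3.

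Lars had the largest fall in WT embryos. It was at 41.5, 42.1, 34.2, 37.9 and 37.4 CPM in WT zygotes and at 5.75, 2.13, 0.998 and 1.66 CPM in WT late 2-cell embryos (-3.86, SE 0.51; edgeR adjusted p = 8.5e-07). It fell by 2.04 in R442Q embryos, from a median of 36.5 CPM to 11.6 CPM. In WT embryos Rars2 (-2.77), Sars (-2.55) and Vars2 (-1.88) followed. Sars went from a median of 85 CPM to 14 CPM. Among members past the threshold in R442Q embryos, Vars2 (-2.76) and Wars (-2.21) fell most beside Vars. Vars was at 0.157 to 1.69 CPM in R442Q zygotes and at 0 in all 5 R442Q late 2-cell embryos. Against a floor of 3 counts over that group it was at least 10.6-fold lower if only counting error is allowed for. That floor leaves out the spread between embryos, and the fitted value of -5.98 is no bound. The list medians could not change with Vars placed at that floor, because Vars stays below them.

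The amount of change from zygote to late 2-cell differed between genotypes for 3 members. Aars rose by 2.57 (SE 0.26) in WT embryos and differed by 0.22 (SE 0.23; edgeR adjusted p = 0.406) in R442Q embryos, an interaction of -2.35 (SE 0.35; edgeR adjusted p = 0.00023). Rars rose by 1.05 (SE 0.31) in WT and by 3.18 (SE 0.29) in R442Q embryos, an interaction of 2.13 (SE 0.42; edgeR adjusted p = 0.0027). On the scaling of this model Rars had medians of 64.6 and 23.4 CPM in WT and R442Q zygotes and of 150 and 219 CPM in WT and R442Q late 2-cell embryos. Its larger rise in R442Q embryos thus began from the lower zygote level. Both interaction calls held in all 25 alternatives, which did not include removal of the length and GC trend. The rise of Rars in WT embryos lost its call without WT late 2-cell replicate 2 (edgeR adjusted p = 0.062).

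Vars had an interaction of -5.97 (SE 1.86; edgeR adjusted p = 0.0469) that lost its call in 22 of 25 alternatives. It was at 0 in 2 of 4 WT late 2-cell embryos and at 0 in all R442Q ones, so its late 2-cell counts all came from WT replicates 2 and 4. Without WT late 2-cell replicate 2 the interaction was -3.86 (edgeR adjusted p = 0.165). The interaction called 10.1% of all genes, 3.07% higher and 7.05% lower, beside 3 of 36 members. It used the embryos of both earlier comparisons and is not independent of them. With the size factors of DESeq2's method (RLE) in place of TMM the median interaction of all genes moved from -0.16 to -0.01 and the calls from 497 higher and 1142 lower to 707 and 917. The median change of R442Q embryos moved likewise from 0.22 to 0.34.

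**Figure D4:**
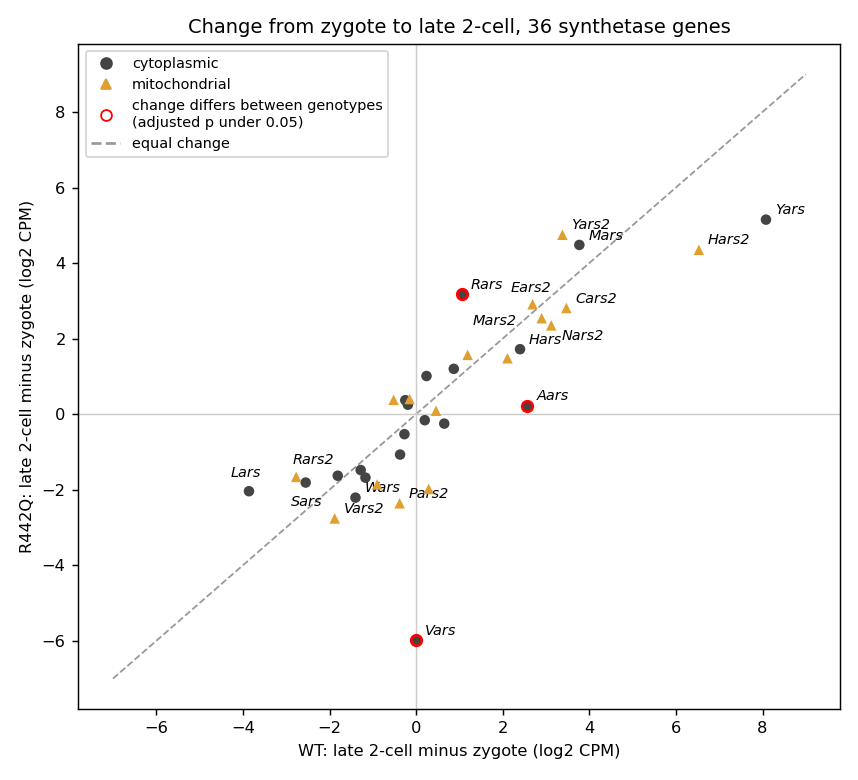
Fitted log2 change of each of the 36 genes from zygote to late 2-cell in WT embryos (horizontal) and R442Q embryos (vertical), with circles for cytoplasmic and triangles for mitochondrial genes, and the dashed line marking equal change. Red rings mark the 3 genes whose change differed between genotypes: Rars above the line, and Aars and Vars below it, the Vars value being a fitted one against 5 embryos at 0.

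Among 15 partner genes 6 rose and 3 fell in WT embryos and 8 rose and 1 fell in R442Q embryos. These counts and the next stand beside 36.2% of all genes higher and 25.0% lower in WT embryos, and 35.3% and 29.8% in R442Q embryos. Of 26 tested amino acid response genes 13 rose and 3 fell in WT and 11 rose and 5 fell in R442Q embryos, with Psat1 up by 7.04 and 5.24 and Trib3 by 6.05 and 4.48 on the log2 scale. Beside 3.07% of all genes higher and 7.05% lower, the interaction was past the threshold for Prorsd1 (1.85), Aimp2 (1.55) and Tarsl2 (2.38), and, in the other direction, for Xpot (-3.44), which exports transfer RNA from the nucleus, and Sesn2 (-3.10). Xpot was at 65.3 ± 20.7 CPM (SD, n = 4) in WT and 21.3 ± 14.4 CPM (SD, n = 5) in R442Q late 2-cell embryos. That late 2-cell difference did not pass the main test, though it did in 4 of 17 alternatives. In zygotes Xpot was at 0.726 ± 0.39 CPM (SD, n = 5) in WT and 2.43 ± 2.0 CPM (SD, n = 6) in R442Q. Its interaction thus rests partly on low zygote levels.

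In the inhibitor-treated blastocysts no synthetase gene passed the test, and 32 of 36 had a lower mean log2 level in R442Q than in WT embryos. Cytoplasmic genes had a median difference of -0.63 on the log2(FPKM + 1) scale, with 19 of 20 negative, and mitochondrial genes one of -0.32, with 13 of 16 negative. Over all 11297 genes tested the median was -0.10, with 4599 positive and 6698 negative. limma with a variance trend called 0 of 36 members and 0.00885% of all genes at an adjusted p under 0.05. At an unadjusted p under 0.05 it had 11 of 36 members and 836 of all genes. None of the 36 members was free of overlap between the genotypes, beside 0.416% of all genes.

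R442Q replicate 7 carried part of this difference. Without it the median was -0.40 for cytoplasmic genes, still with 19 of 20 negative, and -0.15 for mitochondrial genes, with 10 of 16 negative, beside 0.00 over all genes. In that embryo 10 members were under 1 FPKM, Aars was at 0.7 FPKM and Lars2 at 724 FPKM, the highest Lars2 value of the 14 blastocysts. Leaving out any other single blastocyst kept 19 of 20 cytoplasmic differences negative, with medians of -0.55 to -0.75. All of these differences come from the same 14 embryos, so the count describes those embryos and is not 20 separate results.

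The lowest p among members was that of Cars, at 33.4, 81.4 and 119 FPKM (lowest, median, highest) in WT and 15, 36.1 and 51.1 FPKM in R442Q blastocysts. WT replicates 1 and 2 lay inside the R442Q range. The difference was -1.12 (SE 0.33; limma adjusted p = 0.274), and -0.94 (SE 0.31; limma adjusted p = 0.410) without R442Q replicate 7. Tars was at 72.5, 132 and 153 FPKM in WT and 41.4, 64.0 and 98.0 FPKM in R442Q blastocysts (-0.75, SE 0.24; limma adjusted p = 0.337), and -0.64 (SE 0.23) without that replicate. Aars was at 29.2, 68.0 and 113 FPKM in WT and at 0.7, 36.1 and 76.2 FPKM in R442Q blastocysts (-1.36, SE 0.63; limma adjusted p = 0.660), and its difference was -0.73 (SE 0.35) without replicate 7. Rars differed by -0.17 (SE 0.22).

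**Figure D5:**
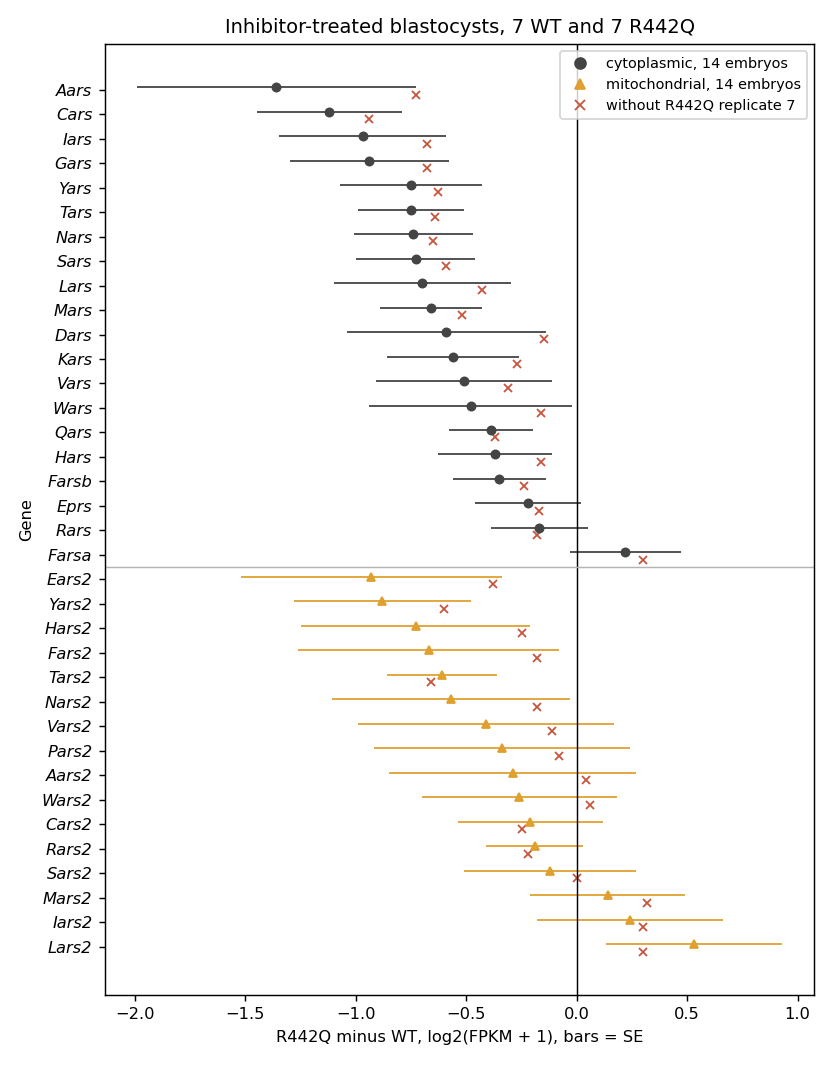
Difference between R442Q and WT blastocysts (7 each) in log2(FPKM + 1) for the 36 genes, with the SE as a bar, circles for cytoplasmic and triangles for mitochondrial genes, and crosses for the value without R442Q replicate 7. Most values lie left of 0 and most crosses lie closer to 0, and none of the differences passed the test.

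In the related lists 0 genes passed the test. All 8 complex members were negative (median -0.58), the 15 partner genes were centred near 0 (median 0.04), and 19 of 21 amino acid response genes were negative, with a median of -0.84. Without R442Q replicate 7 those medians were -0.32, -0.01 and -0.49. Asns, the asparagine synthetase and a classical target of ATF4, was at 197 ± 139 FPKM (SD, n = 7) in WT and 85.8 ± 114 FPKM (SD, n = 7) in R442Q blastocysts. R442Q replicate 5 was at 325 FPKM, and without it the R442Q mean was 45.9 ± 48.1 FPKM (SD, n = 6). Summed blastocyst markers were at 3380 to 24400 FPKM in WT and 1330 to 12900 FPKM in R442Q embryos. Their part in these differences was not tested.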

How the data were processed

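RNA of single embryos was sequenced after SMART-seq2 amplification and Tn5 fragmentation, per the labels' protocols. The deposited tables hold estimated counts for zygotes and late 2-cell embryos and, for all 3 stages, FPKM that the authors scaled to transcript length and library size. RSEM and mm10 are named in the submitters' processing notes. The annotation, strand setting and versions are not given in the sources used here. Groups and replicate numbers come from the sample titles.

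Estimated counts were rounded to whole numbers and tested in R 4.3.3 with edgeR 4.0.16 (TMM scaling, filterByExpr at a minimum count of 10, quasi-likelihood test), each stage alone, and in a 4-group model for the stage change and its interaction with genotype. Blastocysts were tested with limma 3.58.1 on log2(FPKM + 1) for genes at 1 FPKM or more in at least 7 embryos. P-values were adjusted over all genes tested. Both procedures were run on simulated data with independent embryos and large changes planted in better expressed genes. That check does not cover small differences, low counts or shared batches. Differences are R442Q minus WT, or late 2-cell minus zygote. Fold changes on the log2(FPKM + 1) scale understate changes of low genes. CPM within a stage use that stage's scaling, and those given for the stage change use the scaling of the 4-group model.

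The genes named with values were the members past the threshold or without overlap between genotypes. In the stage change they were the 4 largest rises and falls among members past the threshold. The members past the threshold in the interaction, and the highest and lowest 3 of each group by level, were also named. Of the related lists, counts by direction and examples past the threshold are given. Farsa and Aars in zygotes, Iars and Rars in late 2-cell embryos, Cars, Tars, Rars and Aars in blastocysts, and the levels of Asns, Atf4 and Xpot were added after their values were seen. The members and the related lists were chosen with earlier results of these data known. Symbols were matched to GENCODE M21 for positions and to RefSeq for promoters, where Mars was matched as Mars1. One promoter that matched is not reported here and enters no promoter count of the members. Alternatives were RLE size factors, no filter, DESeq2 1.42.0, limma on FPKM, a joint fit of both stages, removal of a length and GC trend, a pseudocount of 0.1, columns scaled to the same sum, a replicate block, and leaving out each embryo.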

Additional observations from a re-analysis of the deposited data

Results flagged for a closer look

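For 3 members the change from zygote to late 2-cell differed between the genotypes, by a test of the difference itself. Aars had an interaction (R442Q change minus WT change, log2) of -2.35, with a rise in WT embryos only. Rars had one of 2.13, with the larger rise in R442Q embryos. Vars had one of -5.97, which rests on few counts and on R442Q late 2-cell embryos at 0, and it lost its call in 22 of 25 alternatives. Among 168 groups of values examined, 13 held an embryo that stood apart from its group by Dixon's criterion, which chance would meet in about 1 in 20 groups. R442Q blastocyst replicate 7 stood apart in 4 of them, with 724 FPKM of Lars2, 32.3 FPKM of Kars, 4050 FPKM of mt-Rnr2 and 8189 genes at 1 FPKM or more. R442Q blastocyst replicate 5 had 325 FPKM of Asns. In zygotes R442Q replicate 4 had 2.61 FPKM of Yars and WT replicate 4 had 0.57 FPKM of Hars2. In late 2-cell embryos WT replicate 1 had 46.6 FPKM of Yars2, R442Q replicate 5 had 1.8 FPKM of Wars2 and R442Q replicate 1 had 1.04 FPKM of Aars2. Of the library measures at that stage, WT replicate 3 had a summed FPKM of 712234, WT replicate 4 had 653 FPKM of Chek1 and R442Q replicate 5 had a total of 8916343 counts.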

How the results depend on the processing

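No difference that passed the test changed direction in the alternatives run for it. Among differences that did not pass, those of Farsa and Aars in zygotes and of Rars and Atf4 in late 2-cell embryos changed sign in at least 1 alternative. In zygotes 6 members were called, against 3 with limma on FPKM, 1 in the joint fit of both stages and 4 to 8 with 1 embryo left out. Only Rars kept its call in the joint fit, which called 270 of all genes against 1643. limma on FPKM called 411 genes higher and 1231 lower, against 783 and 860. In late 2-cell embryos 1 member was called, against 2 without the filter on low counts, 3 with DESeq2 (1 higher, 2 lower), 8 in the joint fit (5 higher, 3 lower) and 1 to 2 with 1 embryo left out, the 2 being without R442Q replicate 3. Iars and Fars2 passed with DESeq2 and in the joint fit (adjusted p 0.0312 and 0.0283 with DESeq2). Over all genes this comparison called 580, against 2507 in the joint fit, 1780 with DESeq2, 889 without the filter, 317 with a length and GC trend removed, and 142 to 891 with 1 embryo left out. The interaction called 3 members, against 6 with DESeq2 and 2 to 5 with 1 embryo left out, the 5 being without WT late 2-cell replicate 1 or R442Q late 2-cell replicate 5. DESeq2 called 2526 of all genes there, against 1639, and 1089 were called without WT zygote replicate 2. The stage change called 19 to 22 members in WT and 21 to 26 in R442Q embryos with 1 embryo left out. In blastocysts 0 members were called in all 18 alternatives, and 0 to 2 of all genes were called, except 30 without WT replicate 7.

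Embryos with the same number in their titles did not deviate together (correlations from -0.168 to 0.206), and nothing says that a number marks a shared batch. With the replicate number as a block, 5, 1, 0, 21, 25 and 2 members were called in zygotes, late 2-cell embryos, blastocysts, the WT change, the R442Q change and the interaction. Of mitochondrial genes in the R442Q change 6 rose and 5 fell with it. Over all genes the block gave 58 calls in late 2-cell embryos and 1085 in the interaction. Under it Farsb (edgeR adjusted p = 0.0621), Sepsecs (0.109), Psph (0.0525), Mthfd2 (0.0986) and Atf4 (0.0546) lost their calls in zygotes. So did Tarsl2 (edgeR adjusted p = 0.082), Prorsd1 (0.073) and Sesn2 (0.061) in late 2-cell embryos, and Vars (0.193) and Tarsl2 (0.0727) in the interaction. The deposited zygote and late 2-cell columns carry other numbers than the titles, and pairs by those had correlations of -0.144 to 0.0408. A block by them, chosen after seeing the data, called 5, 0, 20, 26 and 2 members in zygotes, late 2-cell embryos, the WT change, the R442Q change and the interaction. At the late 2-cell stage it left 3 pairs, and edgeR called 0 of all genes (2158 at an unadjusted p under 0.05), so Aars (adjusted p = 0.133), Tarsl2, Prorsd1 and Sesn2 lost their calls. It also ended those of Tars, Aimp2, Psph, Shmt2, Mthfd2 and Atf4 in zygotes, of Vars2 in the WT change, and of Vars, Aimp2 and Tarsl2 in the interaction. Depth limits Vars, Yars, Hars2, Nars2 and Aars2, which were filtered out in at least 1 stage. Reads were amplified without molecular tags, so the floor used for Vars covers counting error only.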
